A study of Mus musculus with 16 samples.

Results

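The set described here was 10 of 52542 gene entries: Rpn1, Rpn2, Ddost, Dad1, Ostc, Lrrc59, Calr, Sec61b, P4hb and Pdia6. All encode proteins of the endoplasmic reticulum (ER) that glycosylate, translocate or fold proteins entering the secretory pathway. They were chosen by name, with their relation to transcripts of granule proteins in these same cells already known. That relation is therefore described below with no test of the 10 genes, and they were tested only between groups of cells that all had 0 granule UMIs among 500 drawn from each cell. The cells were bone marrow LSK cells, that is lineage-negative cells carrying Sca-1 and Kit, a fraction in which stem cells and early blood progenitors are found. The mice (C57BL/6J per the labels) were lethally irradiated CD45.1/CD45.2 hosts. They had been given an equal mixture of Regnase-1-/-Regnase-3-/- fetal liver cells carrying CD45.2 and control fetal liver cells carrying CD45.1, and single LSK cells were sorted 4 weeks later. Messenger RNA 3' ends were counted with MARS-seq, which works on sorted plates and tags every captured molecule with a unique molecular identifier (UMI). The labels place all 16 libraries in 1 group and give no genotype for a library or a well, so knockout and control cells were not compared. Host cells surviving irradiation, if any, were not told apart from donor cells. How many mice were used is not stated in the labels, so several libraries may come from the same animal.

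Proteins bound for secretion, for granules or for the cell surface enter the ER through the Sec61 channel while they are being made. The oligosaccharyltransferase sits beside that channel and moves a preassembled glycan onto asparagines of the growing chain. Calreticulin then binds the trimmed glycan and holds the protein until it is folded, and protein disulfide isomerases form and rearrange its disulfide bonds. Immature neutrophils and monocytes make large amounts of glycosylated granule proteins, among them myeloperoxidase (Mpo), neutrophil elastase (Elane), proteinase 3 (Prtn3) and cathepsin G (Ctsg), which pass through this route. Those 4 genes are called the granule genes here.

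After filtering, 5157 cells remained, 295 to 345 per library, with 500092 to 810096 UMIs per library. The median cell of a library held 1146 to 1993 UMIs. LSK gate genes (Kit, Ly6a and Cd34) summed to 810 to 1115 counts per 1000000 UMIs (CPM) in every library. Of 18 genes of mature blood and vessel cells, Ltf, Cd79a, Cd3e, Cd3d and Cdh5 were at 0 UMIs, and the summed level of all 18 was 7.74 to 181 CPM, highest in LSK library 7. The deposited well table puts 6 libraries in sequencing batch SB343 and 9 in SB341, and LSK library 1 is not listed in it. Granule gene content differed between them. Cells with 2 or more granule UMIs in 500 made up a median of 13.3% of cells in SB343 and 3.96% in SB341. By library number the share was 6.27% to 16.6% in libraries 9 to 16 and 2.14% to 6.27% in libraries 1 to 8.

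Together the 10 genes held 24416 UMIs, 0.234% of all UMIs of kept cells, and Calr alone held 28.6% of them. At least 1 of their UMIs was found in 4571 of 5157 cells (88.6%), with a median of 3 UMIs per cell and 2 of the 10 genes detected. The 60 wells listed as empty held 801 UMIs in total and none of these genes. Since each molecule gives 1 tag at its 3' end, levels of different genes are set side by side without scaling for length, though capture may differ between genes. Summed over the 10 genes, the level was lowest in LSK library 2 at 1752 CPM, had a median of 2287 CPM, and was highest in LSK library 14 at 2765 CPM. The order by median was Calr, Sec61b, P4hb, Dad1, Rpn2, Pdia6, Ostc, Rpn1, Lrrc59 and Ddost. Calr was above Sec61b, and Sec61b above P4hb, in 16 of 16 libraries. Every lower pair of neighbours changed places in at least 2 libraries, as Lrrc59 was above Ddost in 14 of 16 and Rpn2 above Pdia6 in 9 of 16. The ranges over libraries overlapped for each of the 9 pairs of neighbours.

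Of the 5 oligosaccharyltransferase subunits in the set, Dad1 was the most abundant, below Krtcap2 (median 344 CPM) and Ost4 (229 CPM), subunits outside the set. Dad1 is a small membrane subunit named for the cell death that follows its loss. It lies on chromosome 14, 54235479 to 54254104, minus strand (GRCm38), and had 168 CPM in the lowest library, a median of 205 CPM and 271 CPM in the highest. Rpn2 (ribophorin II; chromosome 2, 157279017 to 157326319, plus strand) had a median of 185 CPM, between 150 and 253 CPM. Its batches overlapped, with medians of 217 CPM in SB343 and 164 CPM in SB341. Ostc (chromosome 3, 130695912 to 130709444, minus strand), a subunit of the enzyme form that works at the channel, had 103, 146 and 182 CPM as lowest, median and highest values. Rpn1 (ribophorin I; chromosome 6, 88084482 to 88105304, plus strand) holds substrate chains near the catalytic subunit. It had a median of 132 CPM, between 93.1 CPM in library 7 and 161 CPM in library 11. Ddost (chromosome 4, 138304730 to 138312628, plus strand), the subunit that keeps the core of the complex together, was the least abundant of the 10, at 56.0, 88.5 and 110 CPM. A UMI of Dad1 was found in 28.0% of cells (95% Wilson interval 26.8% to 29.2%) and of Ddost in 13.6% (12.7% to 14.6%), intervals that cover counting error only.

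Sec61b (chromosome 4, 47474658 to 47483242, plus strand) encodes the beta subunit of the Sec61 channel. It was second in level and the steadiest of the 10 over libraries by the ratio of highest to lowest, 1.49, with 304, 392.3 and 453 CPM as lowest, median and highest. Lrrc59 (chromosome 11, 94629767 to 94645216, plus strand), a ribosome-binding membrane protein of the ER, varied the most by that ratio, 2.60. Its lowest value was 60.0 CPM in LSK library 2, its median 106 CPM and its highest value 156 CPM in LSK library 13. Lrrc59 overlaps Eme1 on the opposite strand, which had 161 UMIs in its own entry against 1154 of Lrrc59. No source used here says whether the counting used strand, so the split between those entries is uncertain.

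Calr encodes calreticulin, the calcium-binding lectin chaperone, and lies on chromosome 8, 84841850 to 84846934, minus strand. It had 398 CPM in LSK library 2, a median of 664 CPM and 893 CPM in LSK library 13. A processed copy, Calr-ps, had 113 UMIs in its own entry against 6974 of Calr, so a small share of reads may have gone to either. Calr had UMIs in 54.7% of cells (53.3% to 56.1%). Its spread over libraries was far above counting error, with a chi-square per degree of freedom of 21.3, where 1 would be counting error alone. The next highest was P4hb at 4.90, and the other 8 genes lay between 1.71 for Ddost and 3.64 for Lrrc59. Sec61b, the steadiest by the ratio of highest to lowest, was not so by this measure. It stood at 3.53, and among the 8 only Pdia6 (3.55) and Lrrc59 were higher. P4hb (protein disulfide isomerase A1; chromosome 11, 120560298 to 120573253, minus strand) had 170, 241 and 327 CPM as lowest, median and highest values. Pdia6 (protein disulfide isomerase A6; chromosome 12, 17266545 to 17284770, plus strand) had 120, 175 and 236 CPM.

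**Figure D1:**
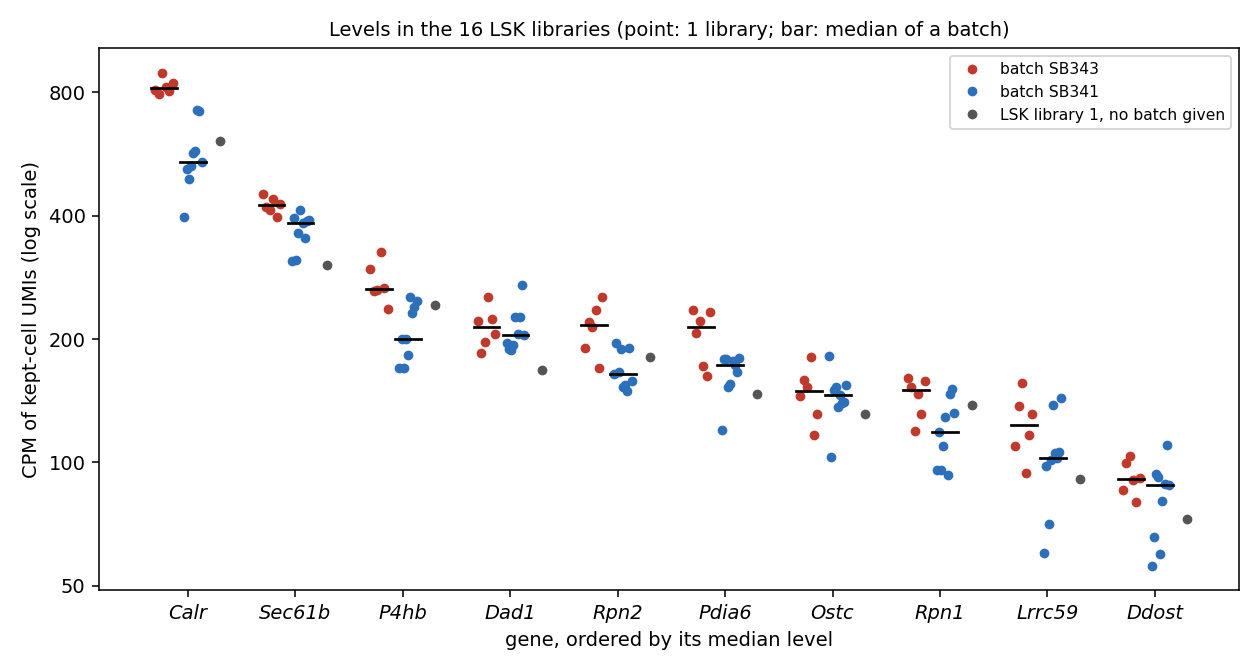
Level of each gene in each library, in counts per 1000000 UMIs of kept cells on a log axis. Points are libraries, coloured by sequencing batch (6 in SB343, 9 in SB341, and LSK library 1 with no batch), and bars are batch medians. Calr is the gene whose SB343 points, 792 to 893 CPM, all lie above its SB341 points, 398 to 723 CPM.

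All 10 genes had a higher median in SB343 than in SB341, as had 62.7% of 3250 genes compared. Calr stood at 792 to 893 CPM in the 6 SB343 libraries and at 398 to 723 CPM in the 9 SB341 libraries, so its ranges did not meet. Ranges apart with SB343 on top were found for 1 of the 10 genes and for 3.2% of all genes compared, and ranges apart with SB343 below for 0 of the 10 and 5.32% of all. Summed over the set, the batch medians were 2710 CPM in SB343 and 2164 CPM in SB341. Granule cells were also more frequent in SB343, so Calr was measured again in cells with 0 granule UMIs among 500. There it had 621 to 722 gfCPM with a median of 698 in SB343 and 383.9 to 666 gfCPM with a median of 507 in SB341. The Calr ranges overlapped, and the SB343 median was still the higher. Summed over the set in these cells, the level was 2363 to 2538 gfCPM in SB343 and 1732 to 2277 gfCPM in SB341, so those ranges did not meet. Over all kept cells the summed ranges overlapped, with 2471 CPM in library 15 of SB343 and 2484 CPM in library 9 of SB341. Here and below, gfCPM are counts per 1000000 granule-free UMIs, that is UMIs other than those of granule genes and spike-ins, within a group of cells. The sources do not say what else differed between the batches. Cell content also differed within SB341, which holds libraries 9 and 10. The granule genes summed to 408 to 970 CPM in libraries 1 to 8 and to 1100 to 2176 CPM in libraries 9 to 16. Calr stood at 721 CPM in library 9 and 541 CPM in library 10. The parts of batch and of the libraries' cell content in the batch difference were not tested.

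Upstream of Calr and Pdia6, the promoter sequences hold the ER stress response element, an element through which the unfolded protein response is known to raise ER chaperone genes. They are shown because they are the members of the set with that element. Of the 10 genes, 9 matched the RefSeq promoter table (GRCm38.p6, 250 bases before to 50 after each start), and Ostc did not. The element was searched on both strands as CCAAT, then 9 bases of any kind, then CCACG. In Calr it read on the strand opposite to the gene, 162 to 144 bases before the start, and in Pdia6 on the gene's own strand, 98 to 80 bases before it. The windows below run 5′ to 3′ on the gene's strand, and capitals mark the outer parts of the element.
Calr, chr8:84847055-84847113, minus strand: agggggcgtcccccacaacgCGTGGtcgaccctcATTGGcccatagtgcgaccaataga
Pdia6, chr12:17266471-17266529, plus strand: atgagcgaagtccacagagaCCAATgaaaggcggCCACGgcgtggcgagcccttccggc
Counted by gene, with a match in any of its promoters, the same element was found in 37 of 27025 genes (0.137%). Its outer parts are common when searched singly. CCAAT was found in 41.1% and CCACG in 35.5% of genes, and each in 7 of the 9. The second form of the element, ATTGG, any base, then CCACG, was in none of the 9 and in 0.0444% of genes. The letters TGACGTGG were in the Lrrc59 promoter alone among the 9 and in 0.714% of genes. A match describes these letters only.

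Against the granule load of single cells, Calr was the gene of the 10 that differed most. To measure that load at equal depth, 500 UMIs were drawn from each cell and its granule UMIs counted. Cells with 0, 1, 2 and 3 or more granule UMIs numbered 3755, 996, 246 and 160. Cells said here to be without granule UMIs had none among the 500, while their full counts still held 1715 Mpo UMIs (235 gfCPM). Over these bands the pooled level of Calr was 582, 746, 923 and 1380 gfCPM, in the same order. P4hb was at 223, 237, 273 and 439 gfCPM, and Pdia6 at 170, 178, 194 and 343, so for both the largest step lay at the highest load. Sec61b followed with 370, 397, 418 and 568 gfCPM, and Lrrc59 with 101, 127, 133 and 160. Among the transferase subunits, Rpn2 was at 178, 197, 210 and 249 gfCPM and Ddost at 80.1, 91.5, 104 and 112. Rpn1, at 128, 130, 164 and 155 gfCPM, and Ostc, at 141, 139, 171 and 179, did not climb at each step. Dad1, at 210, 209, 179 and 243 gfCPM, had no steady order. Each value of the top band has a counting interval, for Calr 1274 to 1492 gfCPM and for Dad1 200 to 292.

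**Figure D2:**
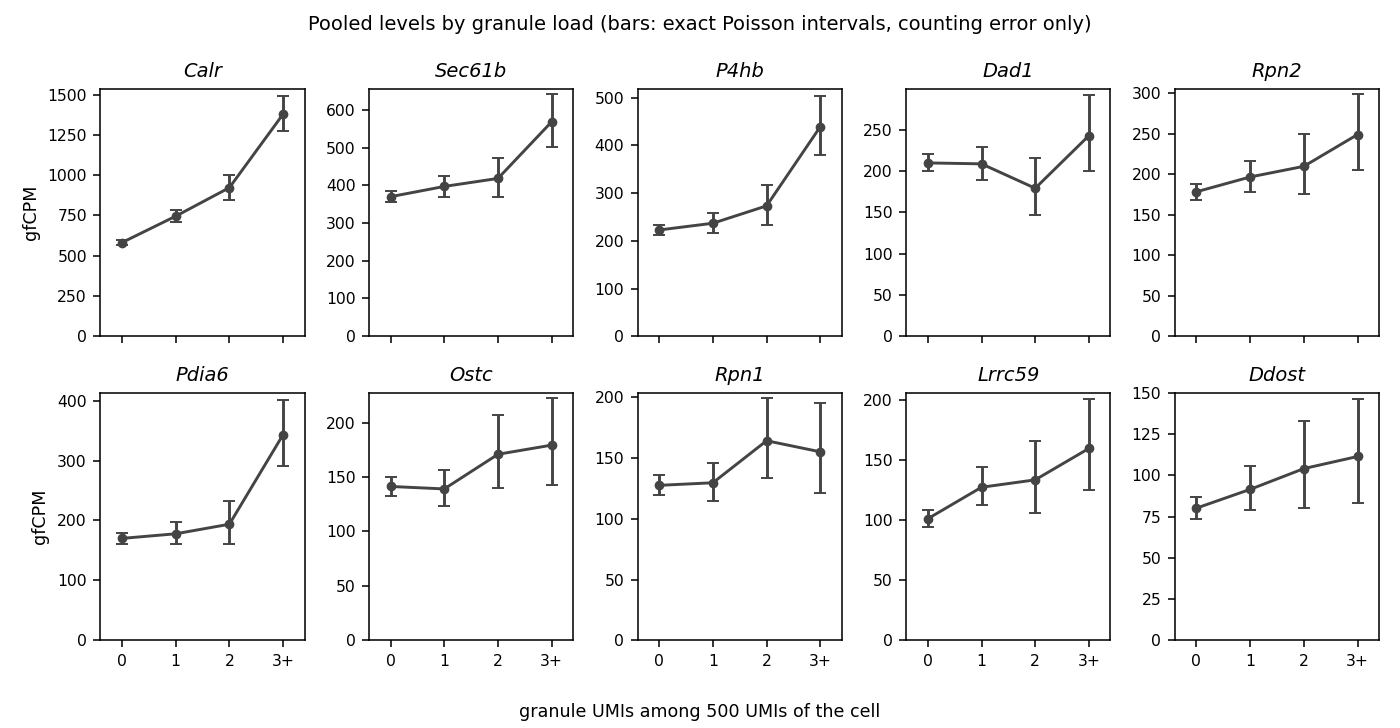
Pooled level of each gene, in counts per 1000000 granule-free UMIs (gfCPM), in cells with 0, 1, 2 and 3 or more granule UMIs among 500. Bars are exact Poisson intervals, which cover counting error only and not the spread between libraries. Calr climbs from band to band, to 1380 gfCPM in the highest, while Dad1 stays between 179 and 243.

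Libraries did not contribute evenly to these bands. SB343 libraries gave 30.9% of the cells with 0 granule UMIs and 65.0% of those with 3 or more, and the median cell of those bands held 1484 and 2369 UMIs. The mean cell cycle count in 500 UMIs was 2.06 and 2.38 in them. In the 7 libraries with at least 10 cells in every band, the median Calr level was 658, 836, 1010 and 1321 gfCPM over the 4 bands. It was above that library's cells without granule UMIs in 7 of 7 libraries in each higher band, and climbed at every step in 4 of 7. For P4hb in the same libraries, the level at 3 or more granule UMIs was above that at 0 in 6 of 7, and climbed at every step in 1.

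**Figure D3:**
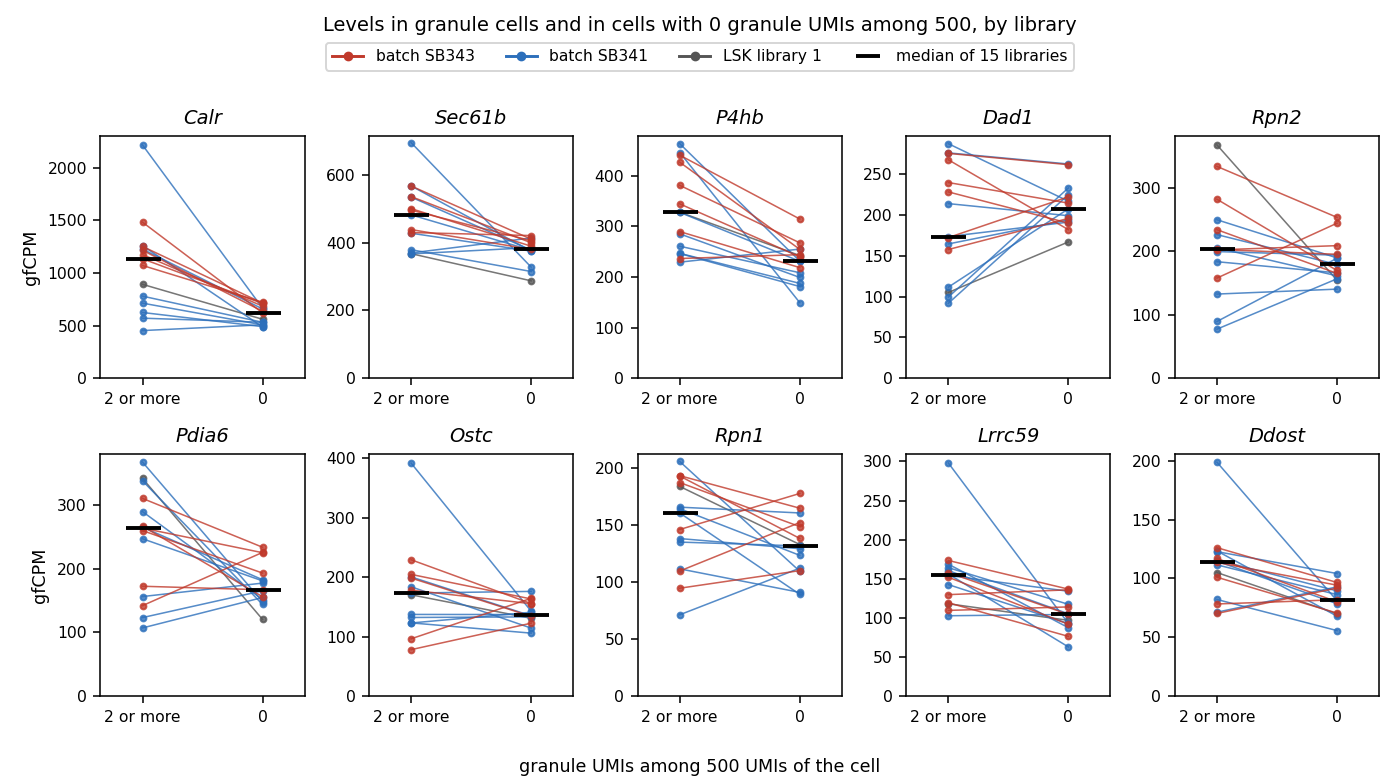
Level of each gene in gfCPM in cells with 2 or more granule UMIs (left) and with 0 (right), with a line for each of 15 libraries and black bars for the medians. Calr is higher on the left in 14 of 15 libraries, and Dad1 in 7 of 15.

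Within libraries, cells with 2 or more granule UMIs were set against cells with 0, in the 15 libraries that had at least 10 of each. Library 2 had too few. Calr ranged from 452 to 2219 gfCPM in granule cells with a median of 1136, against 487 to 722 with a median of 621 in cells without granule UMIs. It was higher in granule cells in 14 of 15 libraries. Library 3 was the exception, and library 8 had the highest value by far. The median log2 ratio was 0.68. Within SB343 that ratio was 0.80, higher in 6 of 6 libraries, and within SB341 it was 0.52, higher in 7 of 8. Over cells of 1000 to 3000 UMIs only, which narrows the depth difference, the Calr ratio was 0.66 and higher in 10 of 10 libraries. In cells with 0 or 1 cell cycle UMIs it was 0.66 and higher in 6 of 6, and from the 500 drawn UMIs alone 0.69 and higher in 12 of 15.

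P4hb had a median of 328 gfCPM (229 to 464) in granule cells and 231 (149 to 315) in cells without granule UMIs, higher in 13 of 15 libraries. Sec61b had a median of 482 (367 to 695) in granule cells against 380 (287 to 421), also higher in 13 of 15. The Sec61b ratio turned with the depth setting. Its median log2 value was 0.35 from all UMIs, -0.05 from the 500 drawn UMIs (higher in 6 of 15) and -0.13 in cells of 1000 to 3000 UMIs (4 of 10). Lrrc59 had 154 (103 to 298) in granule cells against 104 (63.0 to 137), higher in 12 of 15. Pdia6 had 263 (107 to 367) in granule cells against 167 (120 to 233), higher in 11 of 15. The Pdia6 ratio depended on how it was measured. Its median log2 ratio was 0.43 from all UMIs, and from the 500 drawn UMIs alone Pdia6 was higher in 6 of 15 libraries. Median log2 ratios leave out libraries where the gene had 0 UMIs in granule cells. For Pdia6 in the drawn UMIs these were 4 of 15, and the median without them was 0.02. The log2 ratio of its median levels over all 15 libraries was -0.60 there. In cells with 0 or 1 cycle UMIs the median log2 ratio of Pdia6 was -0.10 (2 of 6). Of the transferase subunits, Rpn1, Rpn2 and Ostc had a lower median ratio than Sec61b from all UMIs, and Ddost a slightly higher one. Rpn1 was higher in granule cells in 11 of 15 libraries with a median log2 ratio of 0.23, Rpn2 in 10 with 0.14, Ddost in 12 with 0.39 and Ostc in 10 with 0.22. Their directions also turned between settings. Ddost was at -0.22 in cells with 0 or 1 cycle UMIs (higher in 3 of 6) and at -0.05 in cells of 1000 to 3000 UMIs (4 of 10). Rpn2 was at -0.20 in cells of 1000 to 3000 UMIs (4 of 10) and at -0.01 in the cells of few cycle UMIs (3 of 6), where Rpn1 was at -0.02 (3 of 6) and Ostc at -0.32 (1 of 6). Dad1, with 174 gfCPM (91.7 to 287) in granule cells and 208 (167 to 263) in the others, was higher in 7 of 15 libraries, with a median log2 ratio of -0.14, which was 0.42 in the cells of few cycle UMIs (4 of 6) and 0.12 within SB343 (4 of 6). Calr, P4hb and Lrrc59 had a median ratio above 0 in all 9 other settings. In the drawn UMIs that median left out 4 of 15 libraries for P4hb and 2 of 15 for Lrrc59. For Lrrc59 the lowest was 0.14 (higher in 5 of 8), with the granule load counted from Mpo alone. The log2 ratio of its median levels was -0.09 there, with 119 gfCPM in granule cells and 127 gfCPM in cells without granule UMIs. Summed over the set, the level was 2387 to 4669 gfCPM in granule cells and 1903 to 2538 in cells without granule UMIs, higher in 15 of 15 libraries. The median log2 ratio of that sum was 0.36. Over the other settings it ran from 0.22 in cells of 1000 to 3000 UMIs (10 of 10) to 0.85 with load from all UMIs (9 of 9). From the 500 drawn UMIs alone it was 0.27, and the sum was higher in 10 of 15 libraries.

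The same contrast was fitted across 7555 genes with edgeR's quasi-likelihood test, with the library as a block and Benjamini-Hochberg adjusted p-values. In that fit 28 genes rose and 123 fell in granule cells, 2.0% of those tested in either direction. The median log2 fold change of all genes tested was -0.13, and values should be read against it. With DESeq2's scaling that median was -0.01, and 52 genes rose and 43 fell. All 10 members passed the filter on low counts, and their estimates are given as a description with no call, since the contrast chose them. Calr had a log2 fold change of 0.65 ± 0.08 (SE). P4hb stood at 0.38 ± 0.12, Pdia6 at 0.38 ± 0.13, Lrrc59 at 0.39 ± 0.17 and Ddost at 0.24 ± 0.20. Sec61b stood at 0.20 ± 0.10, Ostc at 0.14 ± 0.15, Rpn2 at 0.07 ± 0.14, Rpn1 at 0.07 ± 0.16 and Dad1 at -0.23 ± 0.14. When only the 500 drawn UMIs were summed, the Calr estimate was 0.15, where the median of all genes was -0.32. Over all settings of the fit the estimates ran from 0.15 to 1.20 for Calr and from -0.15 to 1.04 for P4hb. They ran from -0.23 to 0.70 for Lrrc59, -0.62 to 0.80 for Pdia6 and -0.40 to 0.43 for Sec61b.

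Other genes of the same route were tested in this fit, from 5 lists that hold 110 genes of the files, of which 80 passed the filter on low counts. Levels given with a fit are CPM over all UMIs of a library's group of cells. The lists were drawn up with earlier results of these data known. Of the 80, 2 rose and 1 fell, beside 0.371% rising and 1.63% falling among all genes tested. None of the 7 other transferase subunits tested, led in abundance by Krtcap2, Ost4 and Tmem258, passed the threshold. None had an unadjusted p under 0.05 and DESeq2 called none. Their median log2 fold change was 0.13. Of 20 channel, signal recognition and signal peptidase genes tested, led by Ssr4, Tram1 and Ssr3, 0 passed by either tool, with 3 at an unadjusted p under 0.05 and a median of -0.07.

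Among 23 chaperones and isomerases tested, led by Hspa5, Canx and Selenof, Erp29 rose, and the median of the list was -0.02. Erp29, an ER protein related to the disulfide isomerases, had 57.5 to 560 CPM with a median of 206 in granule cells, against 76.9 to 171 with a median of 123 in cells without granule UMIs. Its log2 fold change was 0.55 ± 0.15 (edgeR adjusted p = 0.0154), and it was higher in 12 of 15 libraries. The call was lost without library 8, 13 or 14, and in 9 of 17 other settings (adjusted p up to 0.808), among them SB341 alone (0.439). Erp29 overlaps Naa25 and Tmem116 on the opposite strand. Hspa5, the ER chaperone BiP, had a median of 550 CPM (356 to 863) in granule cells against 364 (306 to 561), with a log2 fold change of 0.30 ± 0.10 and an edgeR adjusted p of 0.0672. DESeq2 gave Hspa5 an adjusted p of 0.00233.

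Mogs rose among 19 genes of glycan assembly and trimming, a list led by Dpm3, Mogs and Ganab with a median of -0.04. It encodes the glucosidase that removes the outermost glucose from a newly attached glycan. Mogs had 88.9 to 275 CPM with a median of 153 in granule cells, against 54.1 to 107 with a median of 79.3 in cells without granule UMIs, and was higher in 15 of 15 libraries. Its log2 fold change was 0.72 ± 0.18 (edgeR adjusted p = 0.00651). The call was lost without library 9 (adjusted p = 0.0760) and in 9 of 17 other settings (adjusted p up to 0.866), among them SB341 alone (0.304) and a second draw of the 500 UMIs (0.590). Of 11 unfolded protein response and degradation genes, led by Atf4, Xbp1 and Derl1, Asns fell and the list's median was 0.08. Asns, asparagine synthetase, a target of Atf4, had 4 UMIs over the granule cells of 15 libraries and 122 over the cells without granule UMIs, with a median of 0 CPM in granule cells against 14.9 CPM. Its edgeR adjusted p was 0.0154, and DESeq2 set none for it. The call was lost without library 14 (adjusted p = 0.0583), in the second draw (0.0527) and without the library block over the same genes (0.0548). Asns had a value in only 6 of the other settings and in 14 of 16 fits that left out a library, with none without library 10 or 11 and none within either batch.

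Groups of cells with 0 granule UMIs among the 500 drawn gave contrasts other than the one the genes were chosen on. In full counts the granule genes still summed to between 292 gfCPM in megakaryocyte-erythroid list cells and 552 gfCPM in monocyte and dendritic list cells. In granule cells they summed to 4310.1 gfCPM. Cells were placed by the UMIs they held of marker lists for stem cells (such as Hlf and Mecom), lymphoid priming (Dntt, Flt3), megakaryocyte and erythroid genes (Pf4, Gata1) or monocyte and dendritic genes (H2-Aa, Irf8). A cell entered a group with at least 1 UMI of its own list among 500 and 0 of the others, so a group is named for its list and not for a proven cell type. Cells were placed by their own expression, so p-values here measure the spread between libraries under that placement and are too small by an unknown amount.

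In megakaryocyte-erythroid list cells against stem list cells (348 and 285 cells in 15 libraries), 0 of 7 members tested passed the threshold, beside 4.38% of 1119 genes. P4hb had 252 CPM in the median library for megakaryocyte-erythroid list cells and 146 CPM for stem list cells, and was higher in 11 of 15 libraries. Its log2 fold change was 0.58 ± 0.24 (edgeR adjusted p = 0.161), the only member at an unadjusted p under 0.05 in that fit. Rpn2 stood at 204 CPM in megakaryocyte-erythroid list cells and 117 CPM in stem list cells, with a log2 fold change of 0.53 ± 0.29 and an edgeR adjusted p of 0.320. The median over the 7 was 0.19, beside a median of 0.00 for all genes tested. Rpn1 and Calr differed by 0.22 ± 0.28 and 0.19 ± 0.13. DESeq2 called 0 members.

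For lymphoid list cells against stem list cells (527 and 285 cells), 0 of 7 members tested passed, beside 2.51% of 1196 genes. P4hb was again at the top, with 269 CPM in lymphoid list cells and 146 CPM in stem list cells in the median library. It was higher in 12 of 15 libraries and had a log2 fold change of 0.62 ± 0.22 (edgeR adjusted p = 0.136). The stem list cells are the same in these fits, so the P4hb estimates are not independent. When the 500 UMIs were drawn a second time, the P4hb estimate turned to -0.12 in megakaryocyte-erythroid and -0.092 in lymphoid list cells. Rpn1 lay on the other side of 0, with 88.0 CPM in lymphoid list cells and 143 CPM in stem list cells, higher in 4 of 15 libraries. Its log2 fold change was -0.59 ± 0.31 (edgeR adjusted p = 0.466). Calr differed by -0.05 ± 0.13. DESeq2 called 0 members, and 1 had an unadjusted p under 0.05.

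Monocyte and dendritic list cells against stem list cells (328 and 285 cells) gave 0 of 5 members tested, beside 0.516% of 969 genes. The members' log2 fold changes lay between 0.11 for Dad1 and 0.38 for P4hb, with a lowest edgeR adjusted p of 0.756. No member had an unadjusted p under 0.05, and DESeq2 called 0. Ddost and Lrrc59 had 53 and 45 UMIs in the monocyte and dendritic list cells and 29 and 43 in the stem list cells, too few for the fit. In these 3 fits the filter on low counts kept 5 or 7 of the 10 members. With every gene of at least 100 UMIs, 10, 10 and 8 members were tested and again 0 passed.

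Cell cycle activity was compared with more cells. Cells with 4 or more cycle UMIs (803) were set against cells with 0 or 1 (1792), all with 0 granule UMIs among 500, in 16 libraries. In full counts the granule genes summed to 515 gfCPM in cycling and 389 gfCPM in non-cycling cells. All 10 members were tested and 0 passed by edgeR or DESeq2, while 5.11% of 4876 genes rose and 5.93% fell. Lrrc59 had 108 CPM in cycling cells and 80.3 CPM in non-cycling cells in the median library, was higher in 12 of 16 libraries and had a log2 fold change of 0.33 ± 0.16 (edgeR adjusted p = 0.217). It was the 1 member with an unadjusted p under 0.05. Calr differed by 0.01 ± 0.07, the narrowest error of the set, with 637 CPM in cycling and 554 CPM in non-cycling cells in the median library. The lowest estimate was -0.17 ± 0.13 for Ostc. Of the other genes of the route, 60 were tested in the cycle fit and 20, 19 and 16 in the 3 lineage fits, in the order given above, and none passed in any of the 4 by edgeR or DESeq2. At an unadjusted p under 0.05 there were 6 of the 60, and 3, 1 and 1 in the lineage fits.

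**Figure D4:**
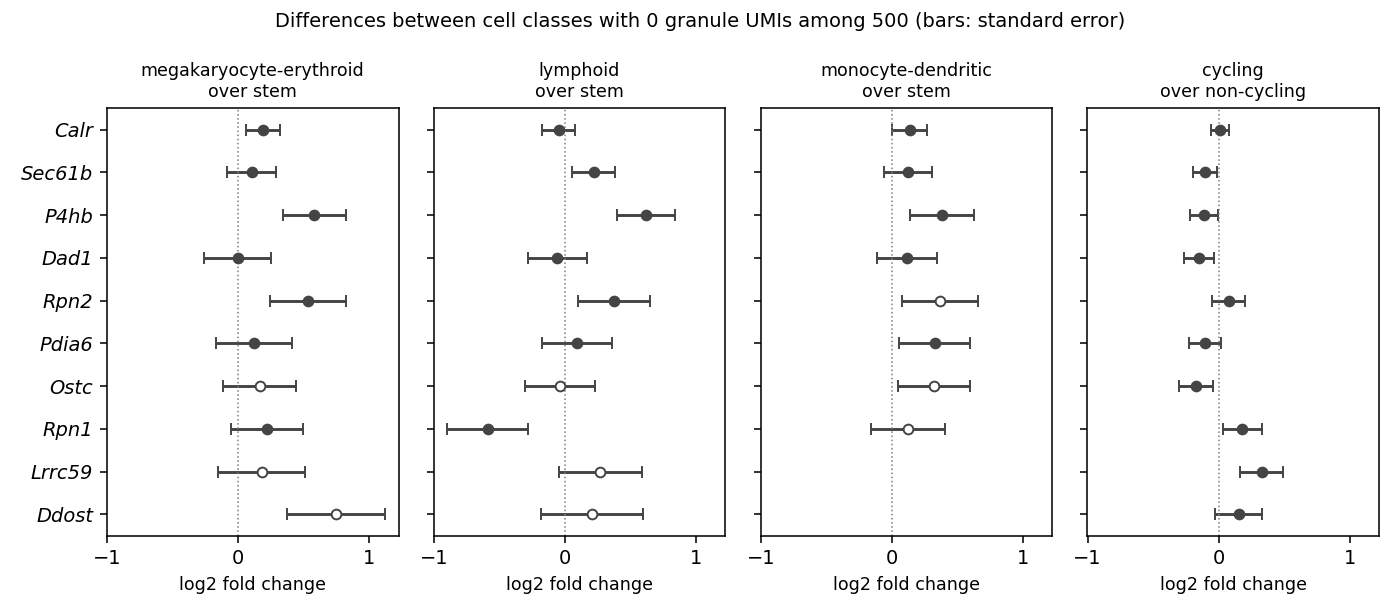
Log2 fold change of each gene between groups of cells with 0 granule UMIs among 500, with its standard error. Filled points passed the filter on low counts and open points come from a fit over genes of at least 100 UMIs. No point passed the threshold, and the estimates run from -0.59 for Rpn1 in lymphoid list cells to 0.75 for Ddost in megakaryocyte-erythroid list cells.

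Set side by side over the groups, Calr had a pooled level of 1118 gfCPM in granule cells, 651 in megakaryocyte-erythroid, 505 in lymphoid, 603 in monocyte and dendritic and 554 in stem list cells. The granule value lies apart from the other 4, which is the contrast the genes were chosen on. Rpn1 had another order, with 160 gfCPM in granule cells, 179 in megakaryocyte-erythroid, 98.1 in lymphoid, 179 in monocyte and dendritic and 142 in stem list cells. Summed over the set, stem list cells had the lowest level, 1964 gfCPM (counting interval 1840 to 2094), next to 2065 (1980 to 2152) in lymphoid list cells. Those intervals overlap and cover counting error only. The stem list cells were also the shallowest, with a median of 1315 UMIs per cell, against 2153 in granule cells. SB343, the batch of higher levels, gave 63.3% of granule, 51.8% of megakaryocyte-erythroid, 24.0% of lymphoid, 25.4% of monocyte and dendritic and 33.8% of stem list cells. The part of depth and of batch in these levels was not tested.

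Over the 16 libraries, the 10 other genes whose levels followed the summed level of the set most closely were Fermt3, Ndufb9, Gm6368, Hsp90aa1, Rpl14, Rps7, Rpl36, Tpr, Ppp1r14b and Hspa8, of 3238 compared. Their Pearson r on log2 CPM was 0.92 for Fermt3 and 0.88 for Hspa8. The libraries fall into batches that differ in level, so these values rest in part on the batches. Fermt3, the integrin-binding kindlin of blood cells, had r = 0.78 within SB341 and 0.81 within SB343. Rpl14, with r = 0.89 within SB341, had r = -0.79 within SB343, and Hspa8 had 0.65 and -0.22. Hspa5 ranked 43 and Mpo 50 on the same measure. Towards the other end, the route genes Ost4 and Sec62 ranked 2871 (r = -0.47) and 3060 (r = -0.74). Hspa5 had r = 0.72 within SB341 and -0.58 within SB343, and Mpo had 0.64 and 0.71. Libraries 9 and 10 of SB341 had more granule gene UMIs (1100 and 1124 CPM) than any of libraries 1 to 8 (408 to 970 CPM). The part of that difference in the values within SB341 was not tested.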

How the data were processed

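The authors deposited UMI counts per gene and well, not normalized, for 16 libraries of 384 wells, and a well table with batch and number of cells. The submitters' processing notes name bcl2fastq 2.15.0.4 and mm10; no source used here names an aligner, a counter, its use of strand or an annotation. Wells counted as cells when they had at least 500 UMIs outside spike-ins, under 20% mitochondrial UMIs and no listing as empty; LSK library 1, absent from the well table, was kept by the first 2 rules. No doublet caller was run, because the well table lists no well with over 1 cell. Libraries held 521435 to 822534 UMIs. No library pair of 120 looked like a copy (chi-square per gene 1.59 to 10.1).

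Members and gene lists were chosen with earlier results of these data known. Cells were placed in groups from 500 UMIs drawn at random per cell. UMIs were then summed per library and group with at least 10 cells, and pairs from the same library were fitted across all genes with edgeR 4.0.16 in R 4.3.3 (quasi-likelihood F test, TMM, filterByExpr, library as block, Benjamini-Hochberg adjusted p at 0.05). The pairing comes from the plate, since both sums of a pair come from the same library. Group marker lists entered the sums but were not tested. Named genes were the 10 members, the granule genes, pathway genes past the threshold, and the 3 most abundant genes of each pathway list. The 10 genes closest in level over libraries with at least 50 CPM were named too. Hspa5, Mpo, Ost4 and Sec62 in that ranking, and Hspa5 in the granule fit, were named after their values were seen. On simulated counts, edgeR recovered 64.6% of 2-fold changes in the granule fit over 7201 genes. In the other 4 fits (898 to 4311 genes) it recovered 95.2% to 98.7%. Of 4-fold changes it recovered 100.0% in each fit. It also called 17 unchanged genes in the granule fit and 6 to 9 in each of the other 4. Recovery is given for changed genes that were tested, and only for 2-fold and 4-fold changes. All member estimates in the other 4 fits were smaller than 2-fold. Recovery in the real counts was not tested, so these shares do not tell how often changes of the members' size would be found. Alternatives included DESeq2 1.42.0, other filters, depths, thresholds and leaving out each library. Gene positions are from GENCODE on GRCm38, and Python 3.11.15 was used for levels and figures.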

Additional observations from a re-analysis of the deposited data

How the results depend on the processing

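Counts of genes past the threshold depended on the processing. The granule fit called 151 genes with the library block, 94 without the block over the same genes, and 55 without the block where the filter then kept 4015 genes rather than 7555. In the same order the megakaryocyte-erythroid fit called 49, 24 and 14, the lymphoid fit 30, 17 and 12, the monocyte and dendritic fit 5, 2 and 2, and the cycle fit 538, 270 and 168. The granule fit called 95 genes with DESeq2, 448 with no filter on low counts, 60 within SB341, 88 within SB343, 24 in cells of 1000 to 3000 UMIs, 279 from the drawn UMIs alone, 68 with the stricter threshold, 78 with load from Mpo alone, 21 with load without Mpo and 12 in cells with 0 or 1 cycle UMIs. The share that rose was 18.5% in the main fit and 54.7% with DESeq2. The megakaryocyte-erythroid fit called 31 with DESeq2, 16 within SB341, 18 within SB343, 26 with a minimum of 1000 UMIs per cell, 3 in cells of 1000 to 3000 UMIs, 1 from the drawn UMIs and 84 in the second draw. The lymphoid fit called 18 with DESeq2, 153 with no filter, 18 within SB341, 7 within SB343, 10 in cells of 1000 to 3000 UMIs and 12 from the drawn UMIs. The monocyte and dendritic fit called 1 with DESeq2, 2 with no filter, 3 with at least 100 UMIs, 1 within SB341, 1 with a minimum of 1000 UMIs, 2 in cells of 1000 to 3000 UMIs, 1 from the drawn UMIs, 10 in the second draw and 0 with the stricter threshold. The cycle fit called 349 within SB341, 190 within SB343, 238 in cells of 1000 to 3000 UMIs, 172 from the drawn UMIs and 330 with the stricter threshold. Leaving out each library of a fit in turn gave 97 (without library 11) to 150 (without library 16) in the granule fit. It gave 30 (without library 4) to 48 (without library 5) in the megakaryocyte-erythroid fit and 2 to 11 in the monocyte and dendritic fit. Fits with fewer cells or libraries have fewer UMIs; otherwise the cause was not tested.

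Outside the granule contrast, members passed in 2 settings: P4hb in lymphoid list cells with no filter (log2 0.91, adjusted p = 0.0227, where the median of all genes was 0.30) and Ostc in cycling cells in the second draw (log2 -0.39, adjusted p = 0.0431). P4hb reversed in the second draw in all 3 lineage fits, at a log2 of -0.12 in megakaryocyte-erythroid, -0.092 in lymphoid and -0.027 in monocyte and dendritic list cells. The median summed level of 2287 CPM became 3009 CPM without mitochondrial and ribosomal protein UMIs. The median log2 ratio of the summed level in granule cells, 0.36, became 0.64 with load without Mpo and 0.85 with load from all UMIs. It fell to 0.27 from the 500 drawn UMIs (higher in 10 of 15 libraries) and to 0.22 in cells of 1000 to 3000 UMIs (10 of 10). Load from all UMIs was an alternative chosen after seeing the data. So were those with at least 100 UMIs, those without the block over the same genes and the ratios within batches. Among members, the median ratio turned below 0 in at least 1 setting for Sec61b, Pdia6, Ddost, Rpn1, Rpn2 and Ostc, as given above. Scaling by spike-ins was not run, since kept cells held 12 spike-in UMIs.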
